A study of Mus musculus with 20 samples.

Results

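Bcl11b binding was compared between KIKO cells, which are Treg cells devoid of Foxp3, and wild-type (WT) Treg cells, as 3 lists of genomic regions. A region was counted as lost where the list placed it in WT Treg cells alone, as gained where it was listed in KIKO cells alone, and as kept where it was common to both. Regions were taken as distinct by chromosome, start and end, and 4 that stood in 2 of the lists were dropped. This left 3519 lost, 67 gained and 2127 kept regions, 5713 of the 22081 distinct regions in the series.

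Chromatin immunoprecipitation and sequencing (ChIP-seq) recovers DNA bound by a protein with an antibody. KIKO Bcl11b was precipitated in 2 libraries from sorted CD4+GFP+ cells of C57BL/6 mice with the genotype Foxp3-GFPKO, a reporter allele that leaves the cells without Foxp3, and 1 KIKO input library accompanied them. WT Treg Bcl11b was precipitated in 3 libraries from sorted CD4+YFP+ cells of C57BL/6 mice with the genotype Foxp3-IRES-YFP-Cre, which marks Treg cells that still make Foxp3, with 3 input libraries. Cells of all these groups came from draining lymph nodes and spleen. The groups also differ in reporter, sort gate and library number, which cannot be told apart from the absence of Foxp3. The labels do not say whether replicates came from separate animals, and none of the lists is named in the description of WT Treg Bcl11b replicate 3. The lists hold positions only, so the depth behind each call is unknown, and the loss of Foxp3 in the KIKO cells was not checked here. Other comparisons of the series, used below, rest on Foxp3 in Bcl11b-KO Treg cells (2 libraries) and in WT Treg cells (2 libraries). They also draw on Bcl11b in WT Tn cells (3 libraries), and these groups are named as in the labels.

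Bcl11b is a zinc-finger transcription factor that commits progenitors to the T lineage and recruits chromatin remodelling and deacetylase complexes to DNA. Foxp3 is the forkhead factor on which Treg identity and suppressive function depend, and it acts together with factors of the Runx, ETS, NFAT and Ikaros families. Cells that transcribe a disrupted Foxp3 allele keep part of the Treg programme but do not suppress. The comparison asks which genes Bcl11b still occupies in such cells.

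Promoter sequences show where lost, gained and kept regions sat next to a gene start. Each one below is the overlap of a Bcl11b region with a 300-base RefSeq promoter window (GRCm38.p6, 250 bases before to 50 after the start), written on the strand of the gene. The first 4 belong to lost regions at Satb1 (chr17:51833394-51833540, minus strand), a chromatin organiser gene, Tigit (chr16:43664198-43664434, minus strand), an inhibitory receptor gene, Cbfb (chr8:105170424-105170666, plus strand), which encodes the partner subunit of Runx proteins, and Kat5 (chr19:5610045-5610171, minus strand), an acetyltransferase gene. Tmem170 (chr8:111876728-111876925, minus strand), which encodes a transmembrane protein, held the sole gained region that overlapped a promoter window. The last 3 belong to kept regions at Fos (chr12:85473685-85473939, plus strand), an AP-1 subunit gene, Bcl2l1 (chr2:152830668-152830813, minus strand), which encodes the survival factor Bcl-xL, and Tbp (chr17:15499687-15499937, plus strand), which encodes the TATA-binding protein. Capitals mark the ETS motif GGAAGT, the cyclic AMP response element (CRE) TGACGTCA, the Runx motif TGTGGT and the GC box GGGCGG, on either strand.
Satb1: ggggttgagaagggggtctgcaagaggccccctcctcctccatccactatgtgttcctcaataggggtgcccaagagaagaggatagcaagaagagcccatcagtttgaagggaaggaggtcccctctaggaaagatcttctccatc
Tigit: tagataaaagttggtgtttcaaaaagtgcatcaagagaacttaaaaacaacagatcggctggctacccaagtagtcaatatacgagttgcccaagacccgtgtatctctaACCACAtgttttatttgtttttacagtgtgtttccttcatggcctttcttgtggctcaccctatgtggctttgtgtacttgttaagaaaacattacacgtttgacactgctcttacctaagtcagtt
Cbfb: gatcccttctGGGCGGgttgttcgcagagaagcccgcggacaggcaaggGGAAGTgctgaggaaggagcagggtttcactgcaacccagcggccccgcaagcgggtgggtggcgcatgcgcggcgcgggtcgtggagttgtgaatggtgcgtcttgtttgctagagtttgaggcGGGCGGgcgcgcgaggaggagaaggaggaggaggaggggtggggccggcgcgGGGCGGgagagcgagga
Kat5: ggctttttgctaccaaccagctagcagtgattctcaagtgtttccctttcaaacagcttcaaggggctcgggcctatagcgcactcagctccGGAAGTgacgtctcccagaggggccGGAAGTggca
Tmem170: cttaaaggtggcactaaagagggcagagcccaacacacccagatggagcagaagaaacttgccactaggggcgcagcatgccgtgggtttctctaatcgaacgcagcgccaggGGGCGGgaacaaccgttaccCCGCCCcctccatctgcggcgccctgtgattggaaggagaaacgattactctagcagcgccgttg
Fos: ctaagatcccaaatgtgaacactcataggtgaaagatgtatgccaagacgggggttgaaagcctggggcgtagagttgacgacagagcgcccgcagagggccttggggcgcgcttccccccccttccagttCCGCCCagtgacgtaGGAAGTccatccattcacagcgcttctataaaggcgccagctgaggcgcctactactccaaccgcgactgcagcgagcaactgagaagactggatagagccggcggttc
Bcl2l1: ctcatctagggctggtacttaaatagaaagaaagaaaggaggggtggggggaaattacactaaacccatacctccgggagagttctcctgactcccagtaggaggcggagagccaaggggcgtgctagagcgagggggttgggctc
Tbp: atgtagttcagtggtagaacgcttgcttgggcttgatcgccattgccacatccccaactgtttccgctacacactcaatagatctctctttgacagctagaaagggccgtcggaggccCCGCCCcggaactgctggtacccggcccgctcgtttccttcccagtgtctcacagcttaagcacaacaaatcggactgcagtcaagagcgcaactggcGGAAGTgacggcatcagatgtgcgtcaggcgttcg
These examples differ in motif content within both classes. The Satb1 and Bcl2l1 stretches hold no match, Tigit holds 1 Runx match, Kat5 holds 2 ETS matches, and Fos and Tbp hold 1 ETS match and 1 GC box each. Cbfb holds 1 ETS match and 3 GC boxes, and Tmem170 holds 2 GC boxes. A match is a stretch of letters and does not show that a factor binds there.

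Loss was the most frequent class in this comparison and gain was rare. Of 5646 regions on the WT side, 62.3% were lost (61.1 to 63.6%, Wilson 95% interval, which covers counting error only, as do all intervals here). Gained regions made up 1.17% of all regions of the comparison, and 96.9% of the 2194 regions on the KIKO side were kept. Regions were assigned to the nearest protein-coding gene within 100 kb, which placed 3482 lost, 65 gained and 2099 kept regions. Among the 4629 genes with a WT-side region, 2645 (57.1%) had lost regions alone, 385 (8.32%) had both lost and kept ones, and 1599 (34.5%) had kept regions alone. Most of these genes, 3842, had a single region.

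Lost and gained regions lay near gene ends less often than kept ones. The centre fell at most 1 kb away from either end of a coding gene for 1047 of 3519 lost regions (29.8%, 28.3 to 31.3%), against 1072 of 2127 kept regions (50.4%, 48.3 to 52.5%). The odds ratio was 0.417 (0.372 to 0.467), with an adjusted p of 2.8e-53 by two-sided Fisher's exact test, adjusted by Benjamini-Hochberg over the 8 main tests. Tests in subsets of regions, given below, were adjusted apart, within each subset. Of the 67 gained regions 7 (10.4%, 5.15 to 20.03%) lay that close. Against kept regions of all widths the odds ratio was 0.115 (0.0441 to 0.253), with an exact adjusted p of 2.0e-11. Such a p sets listed regions against listed regions and says nothing of the spread between libraries, and regions at 1 gene are not independent. Median distances to an end were 4.06 kb for lost, 6.05 kb for gained and 0.95 kb for kept regions.

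Distances to gene starts were read as well. RefSeq start positions with strand were at hand for 17492 of 21887 coding genes, and also for non-coding genes such as Snhg7. None was listed on chromosome 18, so its regions are left out of these distances. Within 100 bases of a listed start lay 414 of 3424 lost regions (12.1%, 11.04 to 13.2%) and 592 of 2076 kept ones (28.5%, 26.6 to 30.5%). None of the 67 gained regions lay that close (up to 5.42%). Median distance to the nearest listed start was 6.11 kb for lost, 8.62 kb for gained and 1.76 kb for kept regions. Of the regions within 100 bases, 215 lost ones lay upstream and 199 downstream of the start, while 346 kept ones lay upstream and 246 downstream. Conversely, 63.3% (61.7 to 64.8%) of lost regions had their centre inside a coding gene, against 56.2% (54.1 to 58.3%) of kept regions (odds ratio 1.34, 1.20 to 1.498, exact adjusted p = 3.1e-07). For gained regions the share was 56.7% (44.8 to 67.9%), with an odds ratio of 1.02 (0.608 to 1.73) against kept regions and an exact adjusted p of 1, an interval that leaves room for a difference in either direction.

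**Figure D1:**
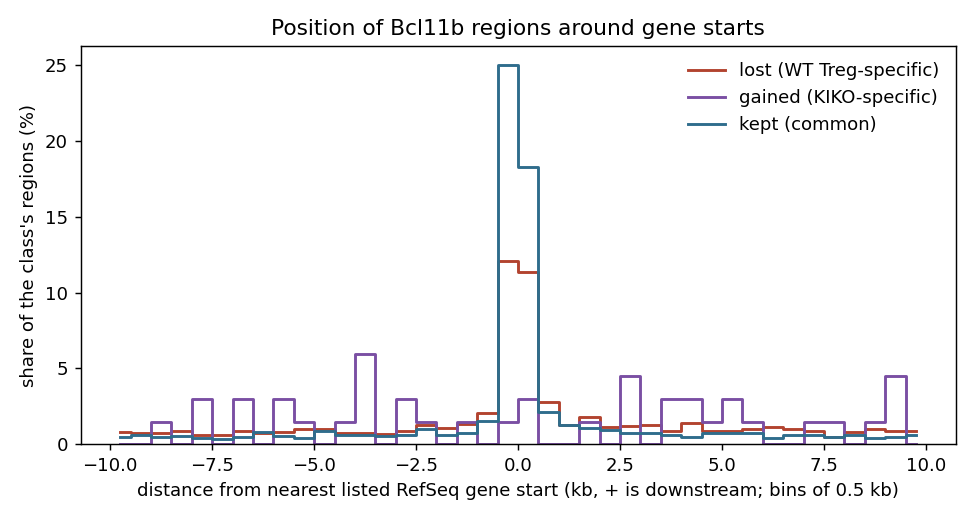
Share of each class of Bcl11b regions (y axis, percent) by signed distance of the region's centre from the nearest listed RefSeq gene start (x axis, kb, bins of 0.5 kb), as step lines for lost, gained and kept regions. Regions on chromosome 18, where no start was listed, are left out. Kept regions peak at the start more sharply than lost ones, with 28.5% of kept and 12.1% of lost regions within 100 bases of it, and the 67 gained regions show no peak there.

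Region width moved with class. The most frequent width was 252 bp for KIKO Bcl11b, read from the gained list, and 198 bp for WT Treg Bcl11b, read from the lost list, so which class these widths favour is partly fixed by the way they were read. The list of Treg-specific regions against Tn cells and that of regions with Bcl11b and no Foxp3 also had 198 bp as their most frequent width, at 88.1% and 93.6% of regions, though from the same WT Treg libraries. The largest such width of a set in the series was 276 bp. Of 2741 regions of exactly 198 bp, 2203 were lost and 538 kept, so 80.4% (78.8 to 81.8%) were lost. Among the 207 regions of 252 bp 4 were lost and 203 kept, which is 1.93% lost (0.754 to 4.86%), and 63 of the 67 gained regions had this width. Of the 2195 regions over 276 bp, 46.9% (44.8 to 49.0%) were lost, 1029 in number, and 1166 were kept. Other widths held 283 lost and 220 kept regions.

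The difference in position was not the same at every width. Among regions of 198 bp, 15.0% of lost and 16.9% of kept ones lay within 1 kb of a gene end (odds ratio 0.869, 0.671 to 1.13, exact adjusted p = 0.50), and 62.9% of lost and 60.8% of kept ones lay inside a gene (odds ratio 1.09, 0.897 to 1.33, exact adjusted p = 0.50). Among regions over 276 bp, 53.7% (50.7 to 56.8%) of lost and 69.5% (66.8 to 72.0%) of kept regions lay near a gene end. The odds ratios of gained regions above were set against kept regions of all widths. At 252 bp, the width of 63 of the 67 gained regions, 7.94% (3.44 to 17.3%) of gained and 25.6% (20.1 to 32.0%) of kept regions lay near an end. Inside a gene lay 54.0% of these gained and 37.4% of these kept regions. The part that width has in the pooled differences was not tested beyond these values.

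Kept regions were also not all listed for WT Treg Bcl11b elsewhere. Of the 3519 lost regions, 3445 stood on the WT Treg Bcl11b side of both other Bcl11b comparisons of the series, and 3 in neither. Of the 2127 kept regions, 1736 stood in both and 231 (10.9%) in neither, and 166 of these 231 had the KIKO width of 252 bp. The rule by which a region entered a common list is not given in the sources used here. Restricted to regions on the WT side of both other comparisons, 33.5% were kept, against 37.7% of all WT-side regions.

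**Figure D2:**
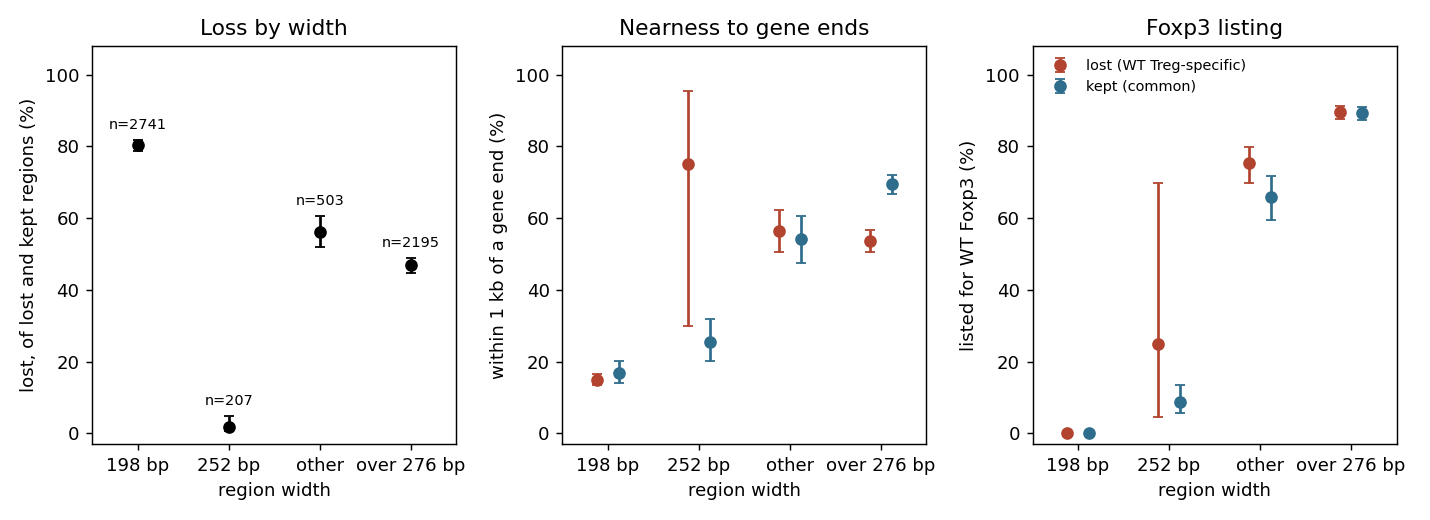
Panels by region width (x axis: 198 bp, 252 bp, other widths and over 276 bp) show the percentage of lost among lost and kept regions, the percentage within 1 kb of a gene end, and the percentage listed for WT Foxp3, with Wilson 95% intervals as bars. The lost share is 80.4% at 198 bp, 1.93% at 252 bp and 46.9% over 276 bp. The Foxp3 shares of lost and kept regions over 276 bp, 89.6% and 89.3%, overlap. Foxp3 listing itself went with width, so this overlap does not show that the classes are alike.

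Foxp3 binding at these regions was read from a separate comparison, of Foxp3 in Bcl11b-KO Treg cells and in WT Treg cells, which shares no precipitated library with the present lists (whether it shares inputs is not given in the sources used here). A region counted as listed for WT Foxp3 when it stood there as lost or as kept. None of the 2741 regions of 198 bp stood in that comparison at all, and 2203 of the 3519 lost regions (62.6%) and 538 of the 2127 kept ones (25.3%) have this width. Regions of a width that is the most frequent one of neither Bcl11b set were listed for WT Foxp3 in 1135 of 1312 lost cases (86.5%) and 1186 of 1386 kept ones (85.6%), with an odds ratio of 1.08 (0.864 to 1.35, exact adjusted p = 0.58). Over 276 bp the shares were 89.6% (87.6 to 91.3%) of lost and 89.3% (87.4 to 90.9%) of kept regions (odds ratio 1.03, 0.780 to 1.37, exact adjusted p = 0.83). Standing in that comparison went with width in itself, at none of 2741 regions of 198 bp and 2052 of 2195 over 276 bp. The odds ratios of 1.08 and 1.03 therefore do not show that lost and kept regions are alike in Foxp3 binding. Why width and listing go together was not tested.

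Pooled over all widths, 1136 lost regions (32.3%, 30.8 to 33.8%) were listed for WT Foxp3, against 1204 (56.6%, 54.5 to 58.7%) of kept ones (odds ratio 0.366, 0.327 to 0.409, exact adjusted p = 3.4e-71). This value counts every region of 198 bp as not listed, so it cannot be told apart from the difference in width. With the regions of 198 bp left out, the shares were 86.3% of lost and 75.8% of kept regions (odds ratio 2.02, 1.65 to 2.47, exact adjusted p = 1.7e-12), a set that still holds the 252 bp regions, of which 1 of 4 lost and 18 of 203 kept ones (8.87%) were listed. Of gained regions 2 of 67 were listed (odds ratio 0.0236, 0.00279 to 0.0892, exact adjusted p = 1.8e-20, against kept regions of all widths). At 252 bp this was none of 63 gained regions, against those 18 of 203 kept ones, and over 276 bp 2 of 4. The comparison of Bcl11b with WT Foxp3, which shares the WT Treg Bcl11b libraries and is given without a test, does hold the 198 bp regions. It listed 284 of the 2203 lost ones (12.9%, 11.6 to 14.4%) and 121 of the 538 kept ones (22.5%, 19.2 to 26.2%) for Foxp3 as well.

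At regions listed for WT Foxp3, Foxp3 itself was missing in Bcl11b-KO Treg cells at 306 of 1136 lost regions (26.9%, 24.4 to 29.6%) and at 298 of 1204 kept ones (24.8%, 22.4 to 27.3%). The odds ratio was 1.121 (0.927 to 1.35, exact adjusted p = 0.27), so a difference of that size was not detectable, which does not show that the classes are alike.

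Genes of the Treg signature had lost regions more numerous than kept ones, as WT-side regions did in general. Of 27 genes on the list, 17 had a region, 12 with lost ones alone, 2 with both and 3 with kept ones alone, and the list held 15 lost and 5 kept regions, 75.0% lost beside 62.3% over all WT-side regions. The region in Foxp3 (chrX:7583933-7584227) lay inside the gene, 4.40 kb downstream of its annotated start. Il2ra, the gene of the high-affinity IL-2 receptor chain, had lost regions 8.93 kb (chr2:11651574-11651875) and 10.71 kb (chr2:11653334-11653671) into the gene. The lost region of Ctla4, which encodes an inhibitory receptor, lay 4.45 kb downstream of its start (chr1:60913292-60913648). All 4 of these regions were listed for Foxp3 in Bcl11b-KO and in WT Treg cells. They were all over 276 bp wide, where 89.6% of lost regions were listed for WT Foxp3. Of the 15 lost regions 14 lay inside a gene and 1 within 1 kb of a gene end, while 3 of the 5 kept ones lay inside and 3 near an end. Over all lost regions 63.3% lay inside and 29.8% near an end, and over all kept ones 56.2% and 50.4%. Batf, Capg, Gpr83 and Icos each lost their sole region, and Swap70 and Tnfrsf9 had 1 lost and 1 kept region each.

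Suppressive mediators and inhibitory receptors held 8 lost and 3 kept regions at 8 of 19 genes, 72.7% lost beside 62.3% over all WT-side regions. Tigit, whose product restrains T cells through the CD155 ligand, had 3 lost regions, in its promoter window and 9.81 and 19.67 kb downstream of the annotated start. Il12a, which encodes a subunit shared by IL-12 and IL-35, had 2 lost regions, and Ctla4, Lag3 and Cd200r1 had 1 each. The kept regions lay at Il10, the gene of an anti-inflammatory cytokine, at Pdcd1, which encodes the receptor PD-1, and at Nt5e, which encodes the adenosine-producing enzyme CD73. In the comparison of Bcl11b-KO and WT Treg cells, the Il10 region (chr1:131025849-131026132) was listed for Foxp3 in Bcl11b-KO cells alone, although the comparison of Bcl11b with Foxp3 listed it for Foxp3 in WT Treg cells. The Pdcd1 region (chr1:94035196-94035670) was listed for Foxp3 in Bcl11b-KO and in WT cells.

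**Figure D3:**
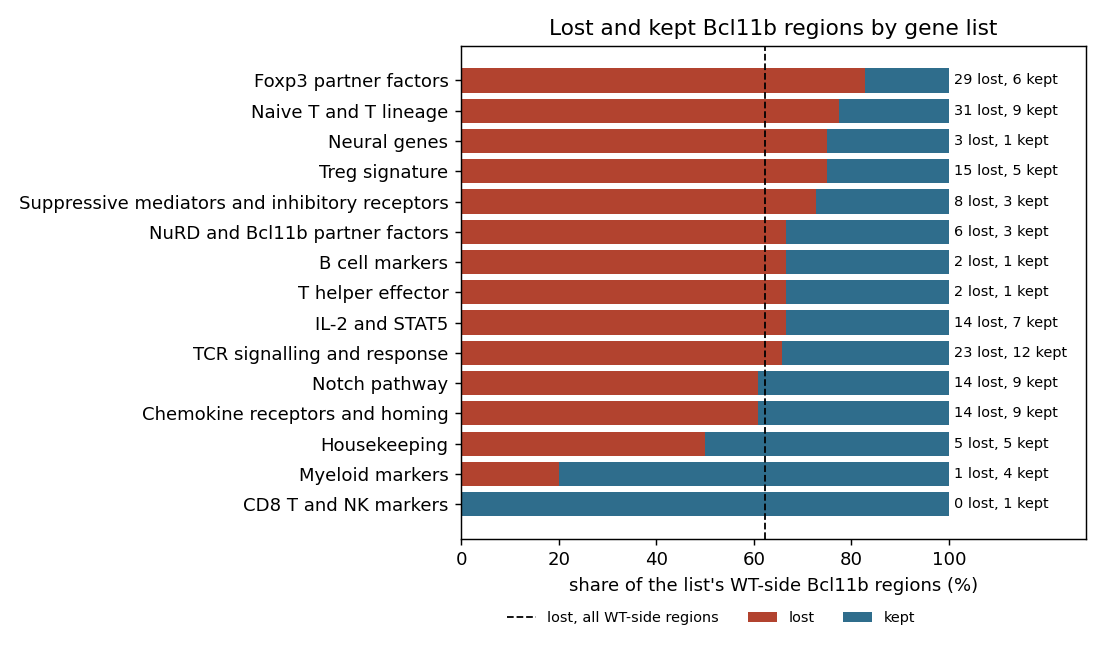
Share of lost and kept regions (x axis, percent) among the WT-side Bcl11b regions assigned to the genes of each list (y axis), with the counts at the right and the 62.3% lost among all WT-side regions as a dashed line. Foxp3 partner factors (29 lost, 6 kept) and naive T and T lineage genes (31 lost, 9 kept) lie to the right of the line, and the myeloid list (1 lost, 4 kept) to its left.

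Genes of naive T cells and of T lineage identity held 31 lost and 9 kept regions at 22 of 31 genes, 77.5% lost. The share over all WT-side regions was 62.3%. Tcf7, which encodes the high mobility group factor TCF-1, had lost regions 16.5 kb upstream of its start and 14.8 and 17.5 kb downstream. Satb1 had 1 lost region 0.202 kb upstream of its start, of which the promoter stretch is printed above, and lost regions 46.4 and 54.6 kb upstream. Ccr7, the lymph node homing receptor gene, Cd5, which encodes a negative regulator of antigen receptor signalling, and Cd247, which encodes the zeta chain of the receptor complex, had 2 lost regions each and no kept one. Runx1, S1pr1 and Themis, which encode a lineage factor, an egress receptor and a signalling protein of thymocytes, each had 2 lost and 1 kept. Bcl11b carried a lost region 5.26 kb (chr12:107998719-107999043) and a kept region 10.90 kb (chr12:107993095-107993393) downstream of its own start. Among the list's regions over 276 bp, 15 were lost and 3 kept, 83.3% beside 46.9% of all regions of that width, and 24 of the 31 lost regions were common to Treg and Tn cells in the comparison of these. Over all lost regions 49.8% were common to both.

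Genes of factors known to work with Foxp3 or to share its sites held 29 lost and 6 kept regions at 19 of 30 genes, 82.9% lost. Over all WT-side regions 62.3% were lost. Some genes, such as Satb1, Tcf7 and Runx1, stand on this list and on the previous one. Rel, which encodes c-Rel, an NF-kappaB subunit needed to form Treg cells, had lost regions 0.354 kb upstream (chr11:23771106-23771541), 0.129 kb downstream (chr11:23770727-23770953) and 10.1 kb downstream (chr11:23760818-23761015) of its start. Hdac7, a deacetylase gene, Smad3, which encodes an effector of TGF-beta, and Yy1, a zinc-finger factor gene, had 2 lost regions each and no kept one. Cbfb had a lost region 0.244 kb upstream of its start and a kept one 3.48 kb downstream. Creb1, which encodes a factor of cyclic AMP signalling, had a lost region 0.709 kb upstream of its start beside a kept one 0.241 kb downstream, and a further lost one. Over 276 bp this list had 11 lost and 2 kept regions, 84.6% lost beside 46.9% of all regions of that width. Of the 29 lost regions of this list 12 were listed for WT Foxp3, and 2 of the 6 kept ones were. Over all regions these shares were 32.3% of lost and 56.6% of kept ones. Regions of 198 bp, none of which stood in that comparison, made up 15 of the 29 lost and 2 of the 6 kept ones.

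IL-2 and STAT5 genes, on which Treg maintenance depends, held 14 lost and 7 kept regions at 11 of 19 genes, 66.7% lost beside 62.3% over all WT-side regions, and 5 of these genes had both classes. Cish, a STAT5-induced feedback inhibitor gene, had lost regions 0.669 kb upstream (chr9:107295742-107296238) and 16.4 kb downstream of its start. Bcl2, a survival gene, had 2 lost regions, both of 198 bp. Stat5b, a transducer of IL-2 signals, had 2 lost regions and 1 kept region, and Il2rb, the signalling chain of the receptor, had 1 of each. Bcl2l1 kept its promoter region and 1 more and lost another, 7.85 kb downstream of the annotated start.

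Genes of antigen receptor signalling and response held 23 lost and 12 kept regions at 21 of 38 genes, 65.7% lost. That is close to the 62.3% over all WT-side regions. Egr1, an immediate early gene on chromosome 18, had 4 lost regions and Nfkb1, which encodes the p50 precursor, had 2, neither with a kept one. Dusp1, a phosphatase gene that limits MAP kinases, had 2 lost regions. Nr4a1, an orphan receptor gene induced by antigen, had a lost region 100 bases downstream of its annotated start (chr15:101253857-101254147). Its kept regions lay 4.67 and 12.8 kb downstream of the annotated start. The kept region at 12.8 kb (chr15:101266396-101266934) overlapped the promoter window of another listed Nr4a1 start. The lost region lay upstream of that other start, so Nr4a1 had a lost region at 1 start and a kept region at another. Fos kept the region at its start, 0.056 kb upstream, and lost one 1502 bases upstream (chr12:85472243-85472534). Dusp5, Egr3, Lcp2 and Zap70 had 1 lost and 1 kept region each. All 12 kept regions of this list were common to Treg and Tn cells in that comparison, and 14 of the 23 lost ones were. Over all regions 73.9% of kept and 49.8% of lost ones were common there.

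Chemokine receptor and homing genes held 14 lost and 9 kept regions at 15 of 25 genes, 60.9% lost beside 62.3% over all WT-side regions. Cxcr5, the follicular homing receptor gene, had 2 lost and 2 kept regions, and Ccr9, the gut homing receptor gene, had 2 lost regions and 1 kept one. Itga4, Itgae and Itgal, which encode integrin alpha chains, each had a single kept region. T helper effector genes held few regions at all, 2 lost (Csf2 and Stat4) and 1 kept (Maf) at 3 of 23 genes, and with gene bodies and 10 kb to each side they held 2 lost and 4 kept. No region of the comparison was assigned to Gata3, Ifng or Il17a.

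**Figure D4:**
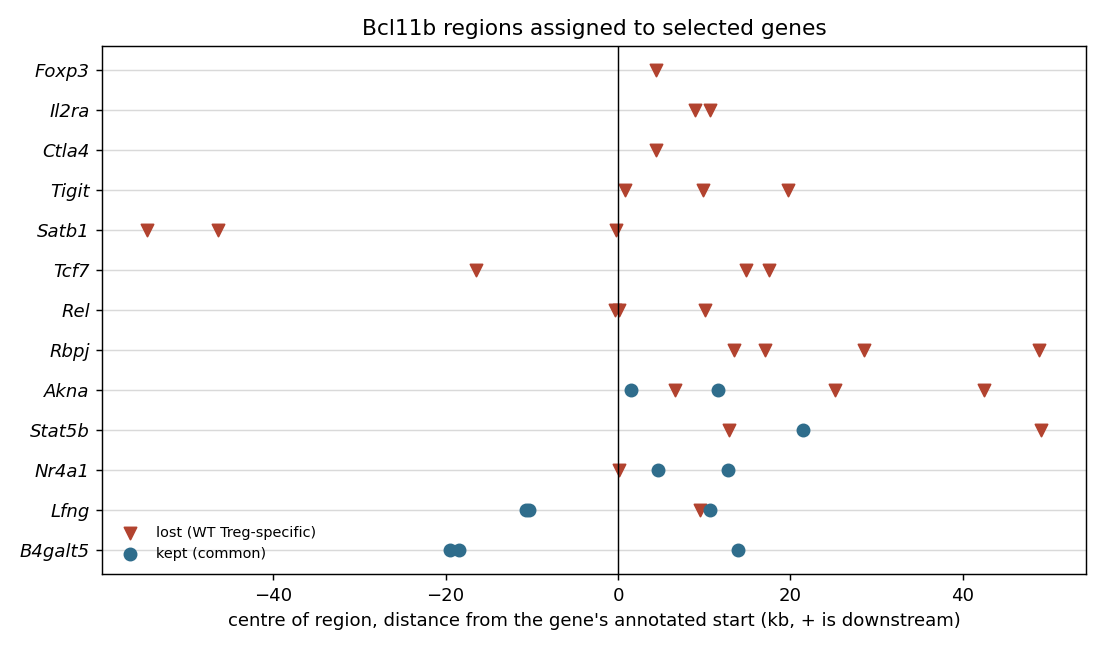
Positions of lost (triangles) and kept (circles) Bcl11b regions assigned to 13 genes, as the distance of each region's centre from the gene's annotated start (x axis, kb, positive is downstream). Foxp3, Il2ra, Ctla4, Tigit, Satb1, Tcf7, Rel and Rbpj show lost regions alone, B4galt5 kept regions alone, and Akna, Stat5b, Nr4a1 and Lfng show both.

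The list of Notch pathway genes and Akna held 14 lost and 9 kept regions at 11 of 29 genes. That is 60.9% lost, close to the 62.3% over all WT-side regions. Rbpj, which encodes the DNA-binding effector of Notch, had 4 lost regions within the gene, 13.4, 17.0, 28.6 and 48.9 kb downstream of its annotated start, each of 198 bp. Maml2, a coactivator gene of that effector, had 3 lost regions, and Notch2, a receptor gene, had 1, at 0.178 kb upstream of its start. Lfng, which encodes a glycosyltransferase that modifies Notch receptors, kept regions 10.72 and 10.37 kb upstream and 10.64 kb downstream of its start and lost 1 at 9.50 kb downstream. Dll4, a ligand gene, Nrarp, a feedback gene, and Numb, an inhibitor gene, had 1 kept region each. The other Bcl11b comparisons listed the Dll4 region as Tn-specific and for Foxp3 alone. They did not list the Lfng region 10.37 kb upstream at all. Neither region thus stood on the WT Treg Bcl11b side there. Akna, an AT-hook protein gene on this list, had 3 lost and 2 kept regions inside the gene, which are counted in the list's totals.

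Genes of the NuRD complex and other Bcl11b partners held 6 lost and 3 kept regions at 7 of 23 genes (6 and 6 with gene bodies and 10 kb to each side). By nearest gene, 66.7% of the list's regions were lost, beside 62.3% over all WT-side regions. Lost regions stood at Cdk9, Gatad2a, Mbd3 and Rbbp4, a kept one at Smarcd1, and 1 of each at Mbd2 and at Bcl11b. Housekeeping genes held 5 lost and 5 kept regions at 7 of 20 genes, the kept ones including Tbp, Polr2a and Rplp0, and the lost ones including 2 at Actb. Markers of other cell types had few regions. B cell markers had 2 lost (Bank1, Ebf1) and 1 kept (Fcer2a), myeloid markers 1 lost (Cebpb) and 4 kept (Fcgr1, Ly6c2, S100a9, Spi1), CD8 T and NK markers none lost and 1 kept (Klrc1), and neural genes 3 lost (Gad2, Grin1, Neurod1) and 1 kept (Syt1). Among these kept regions, those at Ly6c2 and Syt1 stood on the WT Treg Bcl11b side of neither other Bcl11b comparison. Binding at a gene does not report its expression, so the purity of the sorted cells was not read from these lists. No gained region was assigned to a gene of any of the 15 lists. Gained regions made up 1.17% of all regions of the comparison, and the lists hold few of the 21887 coding genes. Their absence from the lists therefore says little.

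Over all genes, 48 had at least 3 lost regions and no kept one, 7 of them on a list and 41 on none. The 41 include Cdkn1a, which encodes a cell cycle inhibitor, Pik3r1, a regulatory subunit gene of phosphoinositide 3-kinase, Cd82, a tetraspanin gene, Irf2, an interferon regulatory factor gene, and Csf1, a macrophage growth factor gene. St6gal1, a sialyltransferase gene, had 4. Conversely, 75 genes, none of them on a list, had at least 2 kept regions and no lost one, a lower cut-off than above. Among these were Lta, which encodes lymphotoxin alpha, Jak2, a cytokine receptor kinase gene, Bcl10, a signalling adaptor gene, Nfkbie, an inhibitor gene of NF-kappaB, Nfe2l2, which encodes the stress response factor NRF2, and Cdc42, a small GTPase gene, with 2 each. B4galt5, a galactosyltransferase gene, had 3, at 19.4 and 18.5 kb upstream and 13.9 kb downstream of its start. The B4galt5 region 13.9 kb downstream was listed in neither of the other Bcl11b comparisons. B4galt5 was the sole gene with 3 or more kept regions and no lost one. At the lower cut-off, a further 279 genes had exactly 2 lost regions and no kept one. Over all WT-side regions 62.3% were lost. At least 2 of each class stood at 5 genes, Akna, Cxcr5, Gramd1a, Septin9 and Tex44.

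Few regions had another of the comparison close by. A kept region lay within 2 kb of 76 lost regions (2.16%, 1.73 to 2.69%), and another lost one within 2 kb of 114 (3.24%, 2.70 to 3.88%). Of kept regions 76 (3.57%, 2.86 to 4.45%) had a lost one that close and 52 (2.44%, 1.87 to 3.19%) another kept one. With more lost than kept regions in the comparison, these shares say little of a preference for either. Within 10 kb, 268 lost regions (7.62%) had a kept neighbour and 479 (13.6%) a lost one, and 272 kept regions (12.8%) had a lost neighbour and 182 (8.56%) a kept one. By chromosome the lost share ran between 51.7% on chromosome 15 and 76.3% on X, where 29 regions were lost and 9 kept. The share of regions on X was 0.824% of lost and 0.423% of kept regions (odds ratio 1.96, 0.899 to 4.70, exact adjusted p = 0.12), which did not pass the threshold of 0.05.

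Gained regions were single and mostly listed nowhere else. The 65 that could be placed stood at 65 different genes. The 7 within 1 kb of a gene end belonged to Tmem170, Mre11a, Sharpin, Ttc5, Cox7a2, Olfr1030 and Olfr1275. The widest, of 403 bp (chr9:14784711-14785113), lay 0.258 kb downstream of the start of Mre11a, which encodes a nuclease of DNA break repair. It was also Tn-specific in the comparison of Treg and Tn cells and listed for Foxp3 in Bcl11b-KO and in WT Treg cells. Sharpin, which encodes a subunit of a ubiquitin ligase complex of NF-kappaB signalling, and Apbb2 also carried Tn-specific regions, and the Olfr1030 region was common to Treg and Tn cells. Of the 67 gained regions, 63 were not listed in the Tn comparison and 65 were listed in neither Foxp3 comparison.

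The remaining Bcl11b comparisons draw on the same WT Treg Bcl11b libraries, so their listings are set side by side without a test. Against Tn cells, 1756 lost regions were Treg-specific and 1754 common, while 269 kept regions were Treg-specific, 1571 common, 34 Tn-specific and 253 not listed. Against WT Foxp3, 2009 lost regions were listed for Bcl11b alone and 1442 for both factors, while 488 kept regions were listed for Bcl11b alone, 1304 for both and 227 not at all.

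Promoter windows with a lost region were close to those with a kept one in base composition. Of 32851 windows, 579 overlapped a lost region, 1 a gained and 811 a kept one. Median GC content was 62.7% with a lost region, 62.0% with a kept one and 52.3% with none, and the median number of CpG dinucleotides was 24, 24 and 7 in these 3 kinds of window. The ETS motif GGAAGT stood in 43.0% (39.0 to 47.1%) of windows with a lost region and 43.6% (40.3 to 47.1%) of those with a kept one, beside 23.8% of all windows. Its longer promoter form CCGGAAGT, which contains the shorter one, stood in 19.0% (16.0 to 22.4%) and 20.2% (17.6 to 23.1%), beside 3.89% of all. The CRE was found in 5.01% (3.51 to 7.10%) of lost and 5.80% (4.39 to 7.62%) of kept windows, beside 1.79% of all. Intervals of lost and kept windows overlapped for each of these.

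The GC box was found in 67.2% (63.3 to 70.9%) of windows with a lost region and 60.5% (57.1 to 63.8%) of those with a kept one, beside 35.7% of all. The forkhead motif TGTTTAC stood in 2.94% (1.84 to 4.65%) of lost and 2.22% (1.41 to 3.48%) of kept windows, beside 3.65% of all. The Runx motif stood in 12.1% (9.68 to 15.0%) of lost and 14.2% (11.9 to 16.8%) of kept windows, beside 16.8% of all. The core motif of the paralogue Bcl11a, TGACCA, stood in 11.7% (9.37 to 14.6%) of lost and 9.49% (7.66 to 11.7%) of kept windows, beside 13.6% of all. The AP-1 motif TGANTCA stood in 4.32% of lost and 4.69% of kept windows (7.81% of all), the TCF motif CTTTGA in 12.6% and 12.3% (16.0% of all), and the CTCF core CCACNAG in 18.8% and 17.1% (15.3% of all). Each motif was searched on both strands, and windows with a region are richer in GC than the rest, which was not corrected for. These windows hold the regions next to starts alone, and the sequence of the other regions was not used here.

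**Figure D5:**
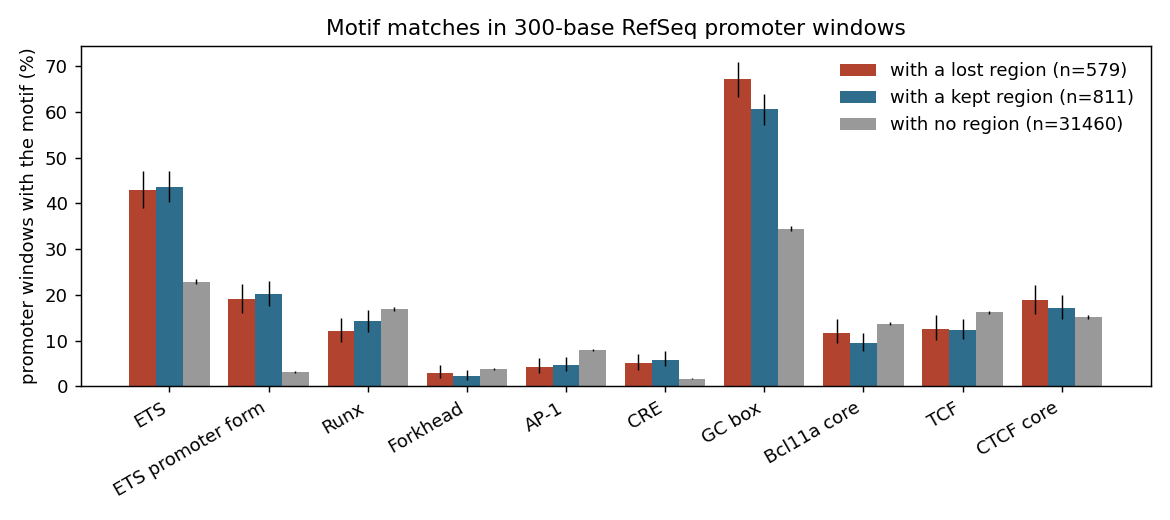
Percentage of 300-base promoter windows (y axis) with at least 1 match on either strand to each of 10 motifs (x axis), for windows with a lost region (n = 579), a kept region (n = 811) and no region (n = 31460), with Wilson 95% intervals as bars. The ETS shares of lost and kept windows, 43.0% and 43.6%, lie above the share of windows with no region, 22.9%, and so do those of the CRE and the GC box.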

How the data were processed

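Regions were deposited by the authors as BED lists of chromosome, start and end in mm10, with no score or signal, 12 in all for 20 samples. Per the submitters' processing notes, HOMER 4.10.1, HISAT2 2.1.0, SAMtools 1.3, deepTools, Trim Galore 0.4.2 with cutadapt 1.12, and FastQC were used, without roles or settings, with peak threshold and pooling not given in the sources used here. Starts were made 1-based. Gene positions and promoter windows came from RefSeq GRCm38.p6, whose coordinates equal those of mm10. Where more than 1 annotated start exists, the annotated start is the gene's outer end. Distances were taken from region centres. Shares have Wilson 95% intervals. Classes were compared by two-sided Fisher's exact test with conditional odds ratios, adjusted by Benjamini-Hochberg over the 8 main tests (Python 3.11.15, pandas 2.3.3, scipy 1.17.1). For each alternative, such as a single width, the adjustment was made anew over the tests that could be run there. The tests were tested on simulated data. The members, the 15 gene lists and the motifs were chosen with earlier results of these data known. Named were genes by numbers of regions (at least 3 lost alone, at least 2 kept alone, or 2 of both), up to 10 members of a list, and 10 genes always; Kat5, Apbb2 and the gained regions near gene ends were named after their values were seen. Alternatives covered width, window, annotation, double-listed regions, chromosomes and support in other comparisons.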

Additional observations from a re-analysis of the deposited data

How the results depend on the processing

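Of 60 recomputed values, 47 kept their direction and their side of the threshold, 4 shares moved, 5 odds ratios no longer passed and 4 turned. The share of WT-side regions kept, 37.7%, was 53.1% over 276 bp, 39.6% with 1 region per gene and class, 19.6% at 198 bp, and 33.5% on the WT side of both other Bcl11b comparisons. For lost against kept regions, the odds ratio of Foxp3 listing, 0.366, turned to 1.03 over 276 bp, to 2.02 without 198 bp and to 1.08 without 198 and 252 bp. That of nearness to a gene end was 0.869 and that of lying inside a gene 1.09 at 198 bp. For gained against kept regions over 276 bp, where 4 gained regions remain, the odds ratios were 0.44 for gene ends and 0.12 for Foxp3 listing, and without 198 and 252 bp the Foxp3 one was 0.169. That of lying inside any annotated gene was 0.997. The causes of these changes were not tested. None of the 2741 regions of 198 bp on the WT side stood in the Foxp3 comparison, while 2052 of 2195 over 276 bp did. The 60 recomputed counts of lost or kept regions by list cover assignment within 20 kb and gene bodies with 10 kb to each side. None moved by over 1.5 times within 20 kb. The 7 that did were all counted with gene bodies and 10 kb to each side. T helper effector genes then had 2 lost and 4 kept regions, NuRD and partner genes 6 and 6, housekeeping genes 11 and 7, B cell markers 4 and 3, myeloid markers 2 and 3, and neural genes 4 and 2. The splits by single widths, the support in other comparisons and the listed starts were added after the data were seen. Motif shares by region were not run, since no genome was used here. No paired analysis was possible because the lists are per group and carry no replicate values. Without scores or counts, the lists give no measure of depth or of how well each precipitation worked.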

Other observations

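Gained regions stood at sensory receptor genes (olfactory, vomeronasal, trace amine and taste receptors) in 14 of 67 cases (20.9%, 12.9 to 32.1%), against 73 lost (2.07%, 1.65 to 2.60%) and 64 kept regions (3.01%, 2.36 to 3.82%). These genes make up 1513 of the 21887 coding genes of the annotation. Of the 14, 9 lay at olfactory, 3 at vomeronasal and 2 at other receptor genes, among them Olfr1030, Olfr1275, Vmn2r88, Taar7f and Tas2r129. The family was picked after the gained regions were seen, so no test was made.

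Of the kept regions, 203 had the KIKO width of 252 bp, and 171 of these stood on no list of the comparison of Bcl11b and Foxp3 and 170 on no list of the comparison with Tn cells. By contrast, all 538 kept regions of the WT width of 198 bp stood on the WT Treg Bcl11b side of both. Of the kept regions at 252 bp, 25.6% (20.1 to 32.0%) had a gene end at most 1 kb away, while 16.9% (14.0 to 20.3%) of those at 198 bp did, and 37.4% lay inside a coding gene, while 60.8% of those at 198 bp did.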
